A study of Homo sapiens and Homo sapiens
Mus musculus and Mus musculus with 9 samples.

Results

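The genes described here encode the proteins of the human mitochondrial ribosome, in the C4-2B prostate cancer cell line cultured alone or mixed with mouse osteoblasts. They were chosen by symbol. A protein-coding gene was a member when its symbol was MRPL or MRPS followed by a number and at most 1 letter. This gave 78 of the 41713 genes in the deposited table, of which 19939 are protein-coding. By symbol, 49 members belong to the large subunit and 29 to the small subunit, and they lie on 21 chromosomes.

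The mitochondrial ribosome translates the few messenger RNAs of the mitochondrial genome, all of which encode inner-membrane subunits of the respiratory chain and the ATP synthase. Its ribosomal RNAs come from mitochondrial DNA. All of its proteins are encoded in the nucleus, made in the cytosol and imported. Some descend from proteins of the bacterial ribosome, and others joined during the evolution of mitochondria. The large subunit forms peptide bonds and holds the exit tunnel, and the small subunit binds the mRNA and decodes it.

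The series compared C4-2B cells, a human prostate cancer line of the genotype WT, cultured alone (3 libraries) with C4-2B cells co-cultured with MC3T3-E1 cells, a mouse pre-osteoblast line, at 1 part to 30 (3 libraries). Another 3 libraries held MC3T3-E1 cells alone and were not used here. Both groups compared were therefore cell lines, and the co-cultured one mixed human with mouse RNA. The human part was separated computationally by 3 pipelines named Xenome, XenofilteR and Kallisto. Xenome sorts reads by species before alignment, XenofilteR drops reads that align better to the mouse genome, and Kallisto assigns reads to a joined human and mouse transcriptome.

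The values used were 1 mean normalized count per gene and pipeline, pooled by the authors over all 6 C4-2B-containing libraries. No label or column of these means separates the co-culture from C4-2B alone, so no change between the groups is given. No SD, replicate error or p-value was computed from them. In bulk RNA of this kind, fewer cells of a type and less RNA per cell cannot be told apart. The same libraries entered every pipeline, so a difference between pipelines is one of processing. The means summed to 42377403 for Xenome, 42923757 for XenofilteR and 46384572 for Kallisto. A level below is a CPM value, the mean count scaled to 1000000 mean counts on protein-coding genes, per kilobase of the canonical transcript, and 1 value per gene is the median over the pipelines. As Xenome and XenofilteR gave nearly equal values, that median lies close to them where Kallisto differed.

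The markers fixed for the labelled cells were checked on the same scale. KLK3, which encodes prostate-specific antigen, had a level of 861, and the luminal keratins KRT8 and KRT18 had levels of 109 and 164. Among osteoblast and fibroblast genes, COL1A1 had a level of 14.3 and COL1A2, SPARC, BGLAP, RUNX2 and PRRX1 lay between 0.182 and 1.78. COL1A2 differed most between the species filters, with mean counts of 45.0 for Xenome, 264 for XenofilteR and 222 for Kallisto. The part of mouse reads in the members' values was not tested.

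How far human and mouse copies of the members can be told apart depends on their sequence. The canonical transcripts were therefore cut into overlapping words of 31 bases, and each word was looked up in the mouse transcripts. Of the 78 members, 34 shared no word with any mouse transcript. The median share was 0.0897% of words over the members and 0.691% over 20046 protein-coding genes. The shares above 2% belonged to MRPL27 (3.51%), MRPS9 (2.53%), MRPL21 (2.41%) and MRPS7 (2.04%). The longest identical coding runs that lay in 1 exon are printed because a 50-base read inside the capitals of MRPS9 or MRPL27 could come from either species. They were read from GRCh38 with GENCODE 44 annotation, 5′ to 3′ on the coding strand. Capitals mark the bases identical to a mouse transcript, and lower case marks the neighbouring coding bases. MRPS9 lies at chr2:105089920-105089995 on the plus strand, with 65 identical bases. MRPL27 lies at chr17:50368117-50368193 on the minus strand, with 53. MRPS30 lies at chr5:44814913-44814982 on the plus strand, with 47.
MRPS9: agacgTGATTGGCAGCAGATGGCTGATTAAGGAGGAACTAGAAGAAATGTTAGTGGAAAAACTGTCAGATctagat
MRPL27: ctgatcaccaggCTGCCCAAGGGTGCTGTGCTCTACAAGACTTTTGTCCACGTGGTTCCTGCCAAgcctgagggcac
MRPS30: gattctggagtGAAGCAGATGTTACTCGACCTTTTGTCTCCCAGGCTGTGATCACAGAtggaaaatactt

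A second set of stretches is printed because these genes are among those with the largest differences between pipelines, described below. Each is a coding stretch of 50 bases, the length of 1 read, that also lies in an annotated exon of another gene on the same strand. All bases are therefore in capitals, which mark sequence shared with the other gene. The MRPL53 stretch at chr2:74472203-74472252 also lies in CCDC142. The MRPS24 stretch at chr7:43866933-43866982 also lies in the readthrough gene URGCP-MRPS24. The MRPL38 stretch at chr17:75901871-75901920 also lies in ENSG00000267426, a gene without a symbol. All are on the minus strand of GRCh38.
MRPL53: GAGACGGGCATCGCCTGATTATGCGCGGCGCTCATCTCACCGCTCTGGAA
MRPS24: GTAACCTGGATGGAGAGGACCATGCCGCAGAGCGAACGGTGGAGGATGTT
MRPL38: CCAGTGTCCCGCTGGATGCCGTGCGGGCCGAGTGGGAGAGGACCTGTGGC

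The members were abundant transcripts as a group. Their median level was 47.7, against 2.02 over the 19874 protein-coding genes with a level, a ratio of 23.6. All members but MRPL53 lay above 2.02, and 68 of 78 lay above the upper quartile of the same genes, 14.6. Those genes include unexpressed ones. Against the 13224 whose mean counts reached 10 by Xenome and by Kallisto, with a median of 9.03, the ratio was 5.29, and MRPL53 and MRPS24 lay below that median. These ratios rest on length scaling of short transcripts, with medians of 1242 bases for the members, 2888 for all genes with a level and 3349 for those reaching 10. In mean counts with Xenome the members' median of 2530 was 4.87 times that of the 17784 protein-coding genes listed and 1.99 times that of the genes reaching 10. The members took 0.620% of the protein-coding mean counts with Xenome, 0.614% with XenofilteR and 0.584% with Kallisto. With Xenome, 0.382% fell on the large subunit and 0.238% on the small subunit. Mean counts reached 10 in every pipeline for 77 members, and all 78 were listed by all 3.

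Members of 1 complex did not have 1 level. Levels in the large subunit ran from 0.0302 to 226, with quartiles of 21.0 and 76.3. Without MRPL53, the highest was 20.3 times the lowest. Levels in the small subunit ran from 5.38 to 141, with quartiles of 20.3 and 81.0, so that the highest was 26.3 times the lowest. That lowest level belonged to MRPS24, which had 76.8 by Kallisto alone. With Kallisto, levels ran from 14.4 to 121 in the small subunit and from 11.3 to 200 in the large subunit. The small subunit then had the narrower range.

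The 5 highest levels in the large subunit belonged to MRPL20 (226), MRPL41 (206), MRPL51 (199), MRPL37 (192) and MRPL24 (167). MRPL20 and MRPL24 descend from bacterial proteins that bind ribosomal RNA early in the assembly of the subunit, and MRPL41, MRPL51 and MRPL37 belong to the mitochondrial additions. MRPL37, at chr1:54184041-54225464, had the highest mean count of all members, with 11493 for Xenome, 11538 for XenofilteR and 11467 for Kallisto. MRPL20, at chr1:1401909-1407293, had mean counts of 6423, 6433 and 6483 in the same order. For both genes the 3 pipelines lay close together.

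The 5 lowest levels in the large subunit belonged to MRPL53 (0.0302), MRPL23 (11.2), MRPL46 (12.2), MRPL42 (12.7) and MRPL22 (13.3). MRPL22 and MRPL23 descend from proteins that line the polypeptide exit tunnel and its mouth, and MRPL46 is a mitochondrial addition in the central protuberance. With Kallisto, MRPL53, MRPL23 and MRPL46 had levels of 43.0, 55.2 and 30.6, beside a subunit median of 51.3. MRPL46 stood at the lower quartile there. MRPL42 combined a low level with a mean count of 7968 with Xenome, among the highest of the members. Its canonical transcript has 15557 bases, of which 426 are coding.

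In the small subunit the highest levels belonged to MRPS15 (141), MRPS7 (109), MRPS21 (98.5), MRPS34 (89.1) and MRPS2 (85.4). MRPS15, MRPS7, MRPS21 and MRPS2 have bacterial kin, with MRPS7 in the head of the subunit, and MRPS34 is a mitochondrial addition. The lowest belonged to MRPS24 (5.38), MRPS17 (10.4), MRPS11 (15.1), MRPS23 (16.0) and MRPS18C (16.2). MRPS24 is the counterpart of the bacterial protein at the mRNA entry channel, and MRPS11 lies on the platform of the subunit. MRPS24 and MRPS17 again had higher levels with Kallisto, at 76.8 and 27.6, while MRPS11 and MRPS23 had 14.7 and 15.1 there. MRPS12, which reaches into the decoding site, had a level of 73.3.

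**Figure D1:**
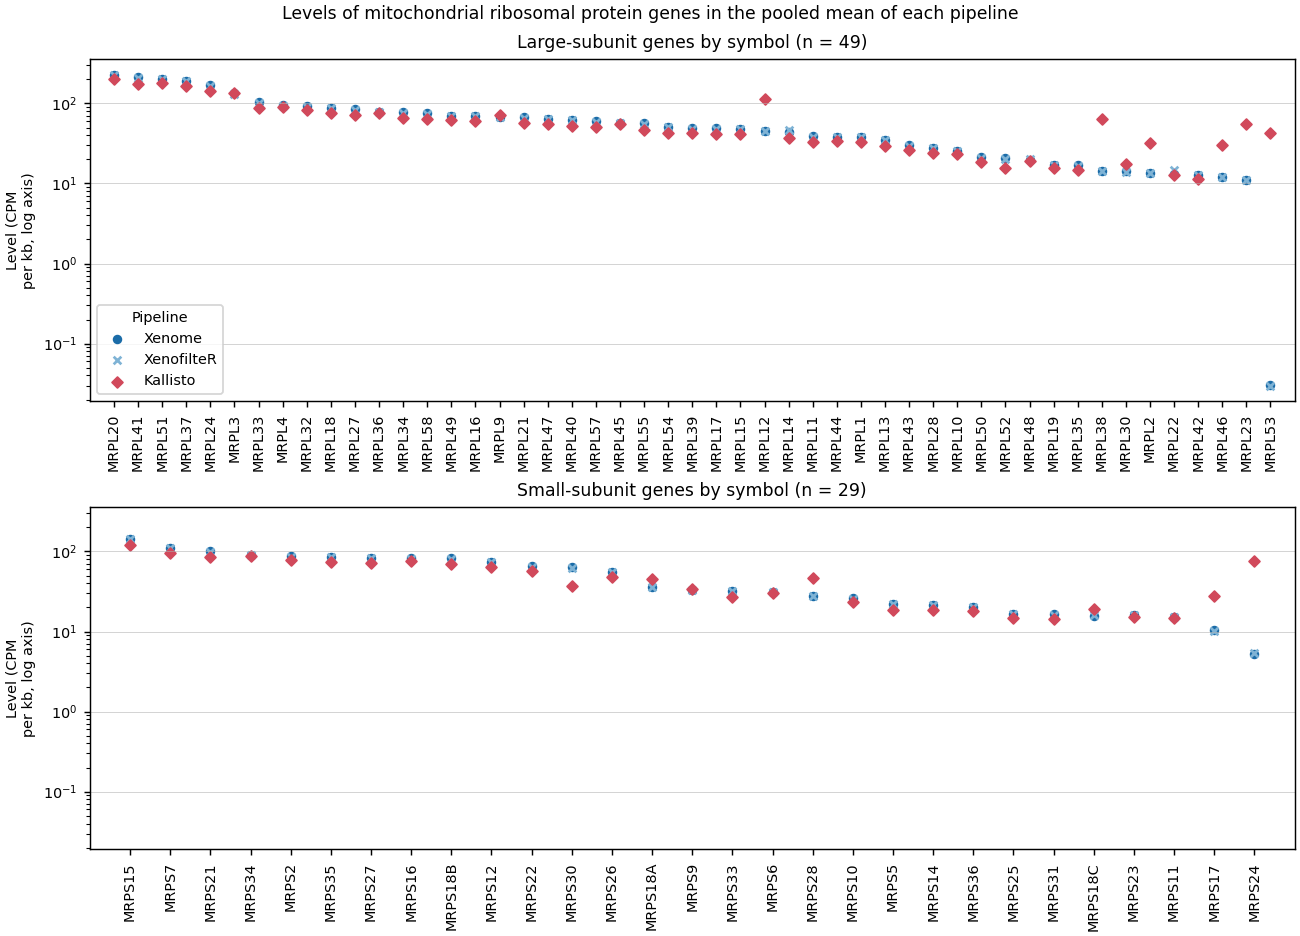
Level of each member (CPM per kilobase, log axis) with Xenome (circles), XenofilteR (crosses) and Kallisto (diamonds), for the 49 large-subunit genes above and the 29 small-subunit genes below, each ordered by the median over pipelines. Most symbols lie together, and Kallisto lies far above the others for MRPL53, MRPS24, MRPL23 and MRPL38.

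Large and small subunit were then compared, which the arrangement of the complex with 1 copy of most proteins makes a natural question. The median level was 48.2 over the 49 large-subunit genes and 33.0 over the 29 small-subunit genes, a ratio of 1.46. The quartiles of the subunits overlap widely. Genes of a list are not replicates, and no test was made. The ratio was 1.48 with Xenome and 1.48 with XenofilteR, and 1.14 with Kallisto, where the medians were 51.3 and 44.8. It was 1.16 per kilobase of coding sequence, 1.07 as a ratio of geometric means, and 0.85 without length scaling. The order of the subunits therefore turned without length scaling and held on both length scales.

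The transcripts of the small subunit are the longer ones, with a median of 1458 bases against 1175 in the large subunit. Between length scales, the order of the members also moved. Spearman's rho between the level per kilobase of canonical transcript and that per kilobase of coding sequence was 0.66 over the 78 members, which share their counts on both scales. Per kilobase of coding sequence, MRPL51 (466) led the large subunit, followed by MRPL42 (463) and MRPL57 (425). MRPL42 went from rank 46 to rank 2 of 49 between the scales. In the small subunit MRPS16 (508) led, followed by MRPS33 (423), which went from rank 16 to rank 2 of 29, and MRPS21 (410). MRPL53 remained the lowest in the large subunit and MRPS24 in the small subunit on both scales.

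**Figure D2:**
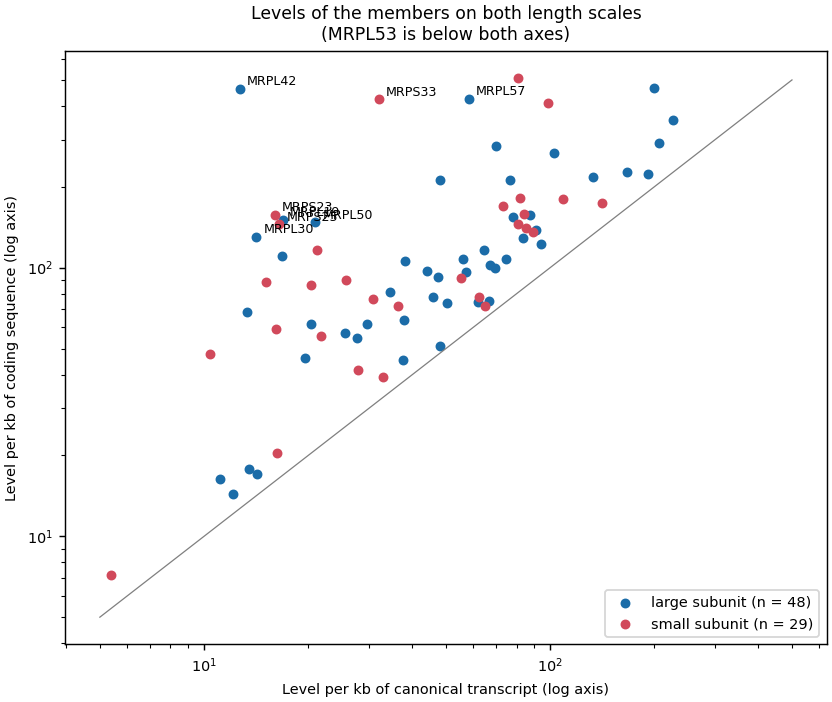
Level of the members per kilobase of coding sequence against level per kilobase of canonical transcript (both log axes, median over pipelines), with large-subunit genes in blue and small-subunit genes in red, and a line of equality. MRPL42, MRPS33 and MRPL57 stand far above the line, while MRPL53 lies below both axes and is left out.

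Symbol and place in the ribosome do not match for a few members. MRPS18A and MRPS30 carry small-subunit symbols, and their proteins sit in the large subunit. Their levels were 36.3 and 62.4. MRPS36 encodes a protein of the 2-oxoglutarate dehydrogenase complex, and its level was 20.3. With these 3 genes placed by structure, the medians were 48.2 and 32.5 and the ratio was 1.48. MRPS18A has the paralogs MRPS18B and MRPS18C in the small subunit. MRPS18B had a level of 80.6 and MRPS18C 16.2, which places MRPS18A between them in each pipeline. MRPL58, a peptidyl-tRNA hydrolase that is also built into the large subunit, had a level of 74.6.

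Members were also split by descent, with 48 counted as kin of bacterial ribosomal proteins and 30 as mitochondrial additions. The 30 are all members without bacterial kin. They include MRPS36, named above as encoding a protein of another complex, which stayed in the medians below. The median level was 46.6 for the bacterial kin and 49.2 for the additions, and with Kallisto alone it was 51.2 and 43.0, the opposite order. Within the large subunit the medians were 52.1 (30 genes) and 48.2 (19 genes), and within the small subunit 31.9 (18 genes) and 55.3 (11 genes). With Kallisto alone the medians were 55.5 and 43.0 in the large subunit and 45.9 and 36.9 in the small subunit. The order in the small subunit and over all members thus turned with the pipeline, and each pair of sets overlapped between its quartiles.

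The pipelines were compared next, member by member. Ratios are given relative to the median ratio over the 13243 protein-coding genes whose mean counts reached 10 with Xenome and with Kallisto, and that median was 0.03 on the log2 scale. XenofilteR and Xenome gave nearly the same values. For 74 of 78 members they lay within 0.05 of each other on the log2 scale, or 94.9%, against 92.6% of 13321 protein-coding genes, so the members were near the background. The exceptions were MRPL22 (1695 with Xenome and 1893 with XenofilteR), MRPL14 (1694 and 1827), MRPL48 (1176 and 1235) and MRPS18C (977 and 1019), all higher with XenofilteR. The canonical transcripts of these genes shared 0%, 0.216%, 0.340% and 0.987% of their words with mouse transcripts, in the same order.

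Between Kallisto and Xenome, 53 of 78 members lay within 0.1 of the median ratio on the log2 scale, or 67.9%, against 58.3% of the protein-coding genes. Kallisto was more than 2-fold higher for 8 members and more than 2-fold lower for none, the latter against 0.649% of the protein-coding genes. Of the 77 members that met the count minimum, 7 were more than 2-fold higher, or 9.09%, against 8.56% of the protein-coding genes. The share of such genes among the members was thus near the background. Of the 8 genes, 6 belong to the large subunit and 2 to the small subunit.

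The largest difference belonged to MRPL53, at chr2:74471982-74472687, a mitochondrial addition near the stalk of the large subunit. It had a mean count of 0.601 by Xenome, 0.600 by XenofilteR and 988 by Kallisto. By Xenome it ranked 78th of the 78 members, and by Kallisto 42nd. Of its canonical transcript, 99.2% of the bases lie in exons of CCDC142 on the same strand, and 71.6% also in exons of a long non-coding RNA on the opposite strand. CCDC142 had mean counts of 487, 488 and 567. Both pipelines that count aligned reads thus gave a low value for this gene, and Kallisto did not.

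MRPS24, at chr7:43866558-43869893, had mean counts of 142, 146 and 2370 for Xenome, XenofilteR and Kallisto, which made Kallisto 16.3-fold higher. Its transcript lies to 90.9% in exons of URGCP-MRPS24, whose mean counts were 2.69, 2.94 and 10.3. By Xenome MRPS24 ranked 77th of the members, and by Kallisto 16th. The lowest small-subunit level thus came from a gene that was among the higher ones by the other method.

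MRPL38, a mitochondrial addition in the central protuberance at chr17:75898643-75905413, had mean counts of 777, 782 and 3963, a ratio of 4.99. It shares 94.3% of its transcript with ENSG00000267426, whose own means were 21.9, 22.1 and 188. MRPS17, at chr7:55951877-55956500, had 744, 744 and 2284, a ratio of 3.00, with 29.4% of its transcript in exons of other listed genes. MRPL46, at chr15:88459477-88467390, had 481, 482 and 1398, a ratio of 2.84, with 73.4% shared. For each of these, the gene with the longest same-strand overlap had a far lower mean count than the member. MRPS17 also shares 3.02% of its transcript with NIPSNAP2 on the same strand, whose mean counts of 4401, 4401 and 4341 were higher than its own.

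MRPL12, at chr17:81703367-81707517, forms the stalk that recruits translation factors and also binds the mitochondrial RNA polymerase. Its mean counts were 1856, 1846 and 5264, a ratio of 2.77. It ranked 41st of the members by Xenome and 8th by Kallisto. Of its transcript, 69.5% is shared with ENSG00000262660, which had means of 0.547, 0.546 and 15.4. MRPL2, whose bacterial kin lies near the peptidyl transferase centre, had 656, 661 and 1825, a ratio of 2.72, with 54.5% shared. MRPS28 had 936, 942 and 1819, a log2 ratio of 0.93, just below 2-fold, with 56.2% shared.

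**Figure D3:**
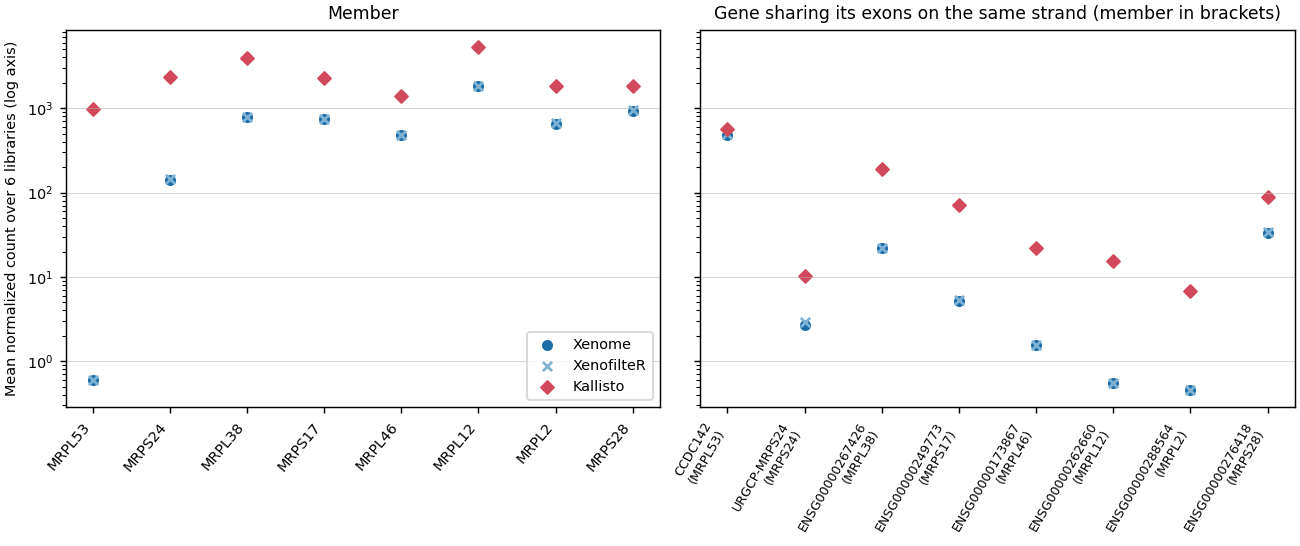
Mean normalized count over 6 libraries (log axis) of 8 members with at least 25% of their transcript in exons of 1 protein-coding gene listed in the table, on the same strand (left), and of that gene (right), by pipeline. Kallisto gave the higher value for each of these members, and for the genes sharing their exons most means lay far below those of the members.

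The share of the transcript that overlaps exons of other listed genes was then set beside the ratio for all members. No overlap was found for 50 members, overlap on the same strand for 11 and overlap on the opposite strand only for 17, or 64.1%, 14.1% and 21.8%. Over 13147 other protein-coding genes the shares were 64.2%, 10.5% and 25.3%, so the members were near the background. In the members without overlap, the median log2 ratio of Kallisto to Xenome was -0.04. It was 1.44 for the 5 members with overlap above 50% and up to 75%, and 3.17 for the 4 above 75%. Over the other protein-coding genes the same medians were -0.02 (8443 genes), 0.95 (294 genes) and 2.49 (366 genes), so that the members followed the order seen across the table. Spearman's rho between overlap and ratio was 0.68 over the 78 members and 0.37 over 13224 protein-coding genes, as a description of genes that share the same libraries.

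Strand went along with the size of the ratio. The 7 members with same-strand overlap of at least 50% had log2 ratios from 0.93 to 10.65. The 2 members with that much overlap on the opposite strand only were MRPS18A (0.48, with RSPH9) and MRPS18C (0.47, with ABRAXAS1). Over the other protein-coding genes, the corresponding medians were 2.08 (427 genes) and 0.71 (192 genes). The paper names a stranded mRNA kit for the libraries. Whether the authors counted reads by strand is not given in the sources used here. If counted without strand, reads of such antisense pairs cannot be told apart. The part of overlap in these ratios was not tested.

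**Figure D4:**
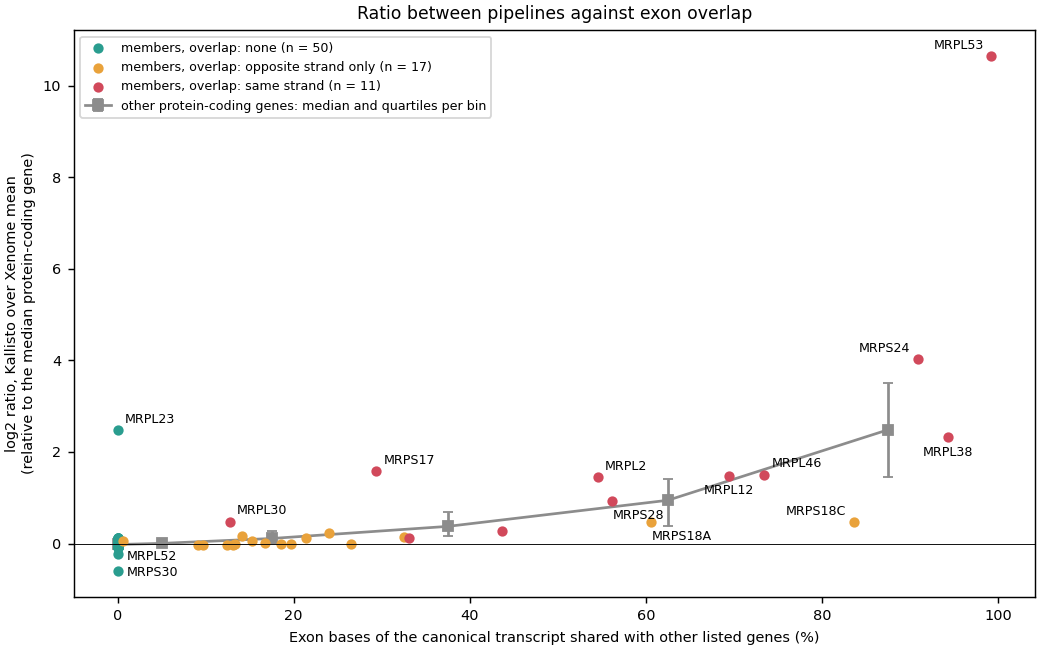
Log2 ratio of the Kallisto to the Xenome mean, relative to the median protein-coding gene, against the percentage of canonical-transcript bases shared with exons of other listed genes. Points are the 78 members coloured by the strand of the overlap, and grey squares with bars are medians and quartiles of the other protein-coding genes per bin of overlap. The ratio is highest for members at the right with same-strand overlap, and MRPL23 stands high without overlap.

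MRPL23 departed from this order. This kin of a bacterial protein at the mouth of the exit tunnel, at chr11:1947278-1984522, has no exon overlap with listed genes, and its mean counts were 301, 302 and 1720, a ratio of 5.58. Of its words of 31 bases, 76.9% also occur on sequences of the GRCh38 file outside the main chromosomes. That share was also high for MRPS36 (91.1%), MRPS18B (88.0%) and MRPL45 (85.6%), whose log2 ratios were 0.01, -0.04 and 0.12. The part of these copies in the MRPL23 values was not tested. MRPS5 shares 97.1% of its transcript with ENSG00000289685, which is in GENCODE 44 and not among the listed genes, and its log2 ratio was -0.06.

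Kallisto was lower than Xenome by more than 0.1 on the log2 scale for 2 members, or 2.56%, against 10.7% of the protein-coding genes. MRPS30, at chr5:44808947-44820428, had mean counts of 4174, 4175 and 2817, a log2 ratio of -0.60. MRPL52 had 934, 920 and 810, a log2 ratio of -0.24. Neither has exon overlap with listed genes. The next lowest were MRPL41 (-0.09), MRPL55 (-0.08) and MRPL40 (-0.08), which lie with the bulk of the members. Of the MRPS30 words, 1.17% occur in mouse transcripts, including the run printed above, and of the MRPL52 words 0%. The members with shares above 2%, MRPL27, MRPS9, MRPL21 and MRPS7, had log2 ratios of -0.06, 0.24, -0.07 and -0.03. The part of shared words in these ratios was not tested.

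Pseudogenes of the members are listed for 21 parents with 29 entries, and none has a Kallisto value. Their mean counts with Xenome summed to 657, or 0.264% of the summed mean counts of the members. The highest were MRPL3P1 (274), MRPL45P2 (165) and MRPS17P1 (67.8), which amount to 2.99%, 4.65% and 9.11% of their parents. MRPL53P1, at 0.888, exceeded its parent at 0.601, or 148%, with both means very low. Of the words of MRPL3, MRPL45 and MRPS17, 16.7%, 20.3% and 38.0% occur more than once on the main chromosomes. The split of reads between parent and copy was not tested. A mean count below 10 was found for 21 of the 29.

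The members were set beside other genes of mitochondrial translation. All 5 subunit proteins that carry other names lay above the protein-coding median of 2.02, with levels of 177 for AURKAIP1, 87.1 for DAP3, 60.4 for CHCHD1, 32.9 for GADD45GIP1 and 21.3 for PTCD3. With them included the ratio of large to small subunit was 1.33. The 10 translation factors had a median level of 25.5, which is 0.535 of the median of the members. Without length scaling the order turned, with a median mean count with Xenome 1.26 times that of the members. The median transcript of the factors has 2360 bases. TUFM, the elongation factor that delivers aminoacyl-tRNA, was the highest at 123. The initiation factors MTIF3 and MTIF2 had 76.5 and 32.1, and the release factors MTRF1L and MTRF1 had 2.91 and 4.90. The highest factor was thus within the range of the members, and by the median over pipelines MTRF1L, MTRF1 and TSFM, the exchange factor of TUFM with a level of 3.64, lay below all members but MRPL53. MTRF1L and TSFM are the factors that were more than 2-fold higher with Kallisto. By Kallisto alone TSFM had a level of 23.7, within the range of the members. There MRRF, MTRF1L and MTRF1 had 11.1, 9.48 and 4.15, below the lowest member at 11.3.

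The 24 assembly and rRNA modification factors had a median level of 15.8, which is 0.331 of that of the members. In mean counts with Xenome this fraction was 0.81, at a median transcript of 2313 bases. C1QBP had the highest level of the list at 377, and ERAL1, which binds the small-subunit rRNA, had 49.1. MRM2, an rRNA methyltransferase, was the lowest at 0.564 and the only one below the protein-coding median of 2.02, while by Kallisto alone it had 37.2. Its mean counts were 38.6 with Xenome, 38.8 with XenofilteR and 2934 with Kallisto, and 99.8% of its transcript is shared with other listed genes. TSFM had 292, 293 and 2187, with 96.4% shared, and MTRF1L had 431, 434 and 1624, with 43.9% shared. Large overlap did not always go with a large ratio. Of the 24 assembly factors, 5 had overlap of at least 50%. Their log2 ratios of Kallisto to Xenome were 6.22 for MRM2, 1.29 for MTG1, 0.56 for NGRN, 0.26 for MALSU1 and 0.01 for TFB1M. Kallisto was more than 2-fold higher for 2 of the 10 translation factors and 2 of the 24 assembly factors, against 8.56% of the protein-coding genes.

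**Figure D5:**
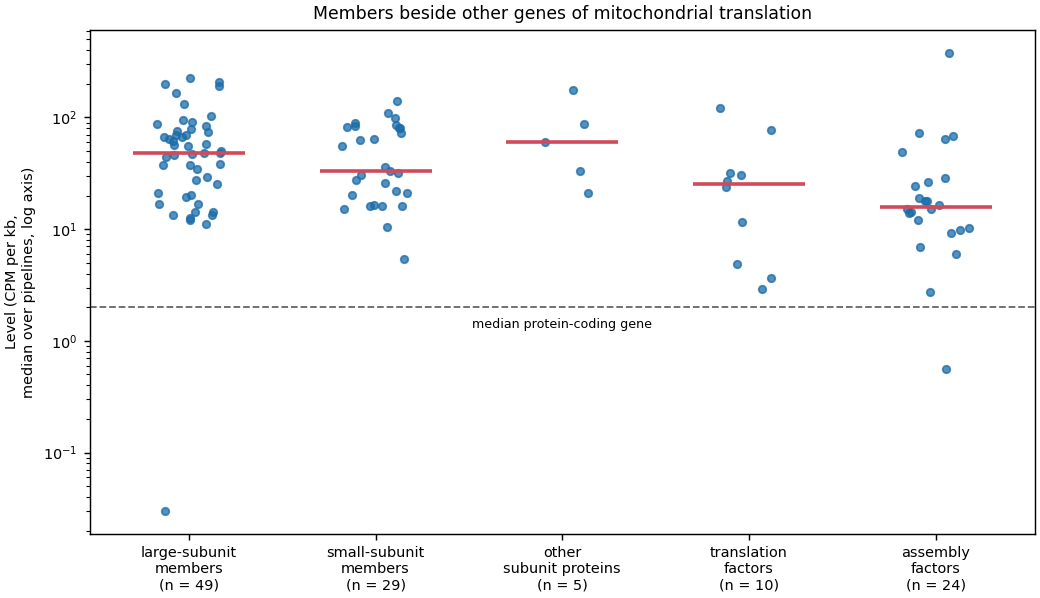
Level (CPM per kilobase, median over pipelines, log axis) of the large- and small-subunit members and of 3 lists of other genes of mitochondrial translation. Each point is 1 gene, red bars are list medians and the dashed line is the median protein-coding gene at 2.02. The median of each list lies above the dashed line, and MRPL53 and MRM2 lie below it.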

How the data were processed

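RNA of C4-2B alone and of co-cultures was sequenced in paired 50-base reads. For Xenome, the authors kept human reads and aligned these with HISAT2 to GRCh38. For XenofilteR, they aligned all reads with HISAT2 to GRCh38 and to GRCm38 and then removed mouse reads. Both were counted with featureCounts. Kallisto quantified reads on a joined GENCODE transcriptome, and the authors ran DESeq2 for each. Versions, annotation release and the strand setting are not given in the sources used here. The deposited table holds for each pipeline the authors' mean of normalized counts over both groups, which was the only kind of value used. Its 15 further columns hold the authors' comparison of the groups (fold changes, errors, test statistics and p-values) and were not used. No table of counts per library was used, so the planned edgeR test could not be run. The total counts per library are therefore unknown, and only size factors of 6 libraries, not matched to samples, were recovered from the pooled means.

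Of 41734 rows, 21 second listings of a gene were dropped. Genes were matched by ID to GENCODE 44, which gave canonical and coding lengths, exon overlap and the printed sequences, and 67 of 78 members had the same span there as in the table. Ratios were centred on protein-coding genes whose mean counts reached 10 by both methods. Scripts ran in Python 3.11 with pandas and scipy. The search for whole reads behind a pooled mean was tested on simulated data. Precision beyond the pooling could not be assessed. Named were the 5 highest and 5 lowest members per subunit and by ratio of Kallisto to Xenome, and genes listed by name, with further members named after their values were seen. Members and lists were chosen with earlier results of these data known, and the analyses of exon overlap and of shared words after seeing the data. The alternatives changed the pipeline, denominator, length, filter, subunit assignment, duplicates and summary.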

Additional observations from a re-analysis of the deposited data

How the results depend on the processing

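No spread between replicates exists for these pooled means, so a value was counted as unmoved when it stayed within 1.5 times that reported. Per kilobase of coding sequence the median level rose to 106 for the large and 91.3 for the small subunit, and without length scaling that of the small subunit was 71.9 and the ratio of large to small turned to 0.85. These shifts follow from dividing by another length. The ratio of large to small otherwise ran from 1.07 to 2.12 over 13 alternatives, the highest being the ratio of sums, which counts 49 against 29 genes. The share of protein-coding mean counts on the members ran from 0.584% to 0.620% over the pipelines. It was 0.583% of the mean counts of all genes listed, and 0.646% of those on protein-coding genes without the mitochondrial genome. Kallisto was more than 2-fold higher for 7 or 8 members in all 3 alternatives. With members free of exon overlap only, an alternative chosen after seeing the data, the ratio of large to small was 1.22. No paired analysis was possible because the values are means over all libraries with no column per library. For the same reason no library could be left out of the levels and ratios, and no spread between replicates is given for them.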

Other observations

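For means of few reads, the pooled mean can be taken apart, since each read adds a fixed amount that depends on its library. For the mean of MRPL53 the search returned 1 solution in whole reads with Xenome and with XenofilteR. A looser tolerance could admit others. The solution corresponded to 19 reads in all. With Xenome, these were 3, 11 and 5 reads in the libraries whose size factors were 5.93, 5.31 and 4.86. The libraries with size factors of 0.427, 0.145 and 0.109 had 0 reads. With size factors so much smaller, 0 reads do not show that the transcript was absent from these libraries. No label matches these libraries to samples, and they were put in no group here. At these size factors 1 read adds 0.0281 to the mean in the first library and 1.53 in the last, so a mean count below about 1.53 cannot hold a read of the last library. These 19 are raw reads, and on the scale of mean normalized counts they amount to the MRPL53 mean of 0.601 with Xenome. That mean stands beside a Kallisto mean of 988 for the same gene and a CCDC142 mean of 487 with Xenome.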
